A study of Drosophila melanogaster with 25 samples.

Results

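The genes described here are 10 members of the Drosophila JAK-STAT pathway and of the thioester protein family, of 16060 genes in the deposited table. They were chosen by symbol, with earlier results of these data known, and found by FlyBase identifier. They are the cytokines upd2 and upd3, the receptor gene dome, the kinase gene hop and the transcription factor gene Stat92E. The others are the inhibitors Socs36E and Ptp61F, and Tep1, Tep2 and Tep4. The Turandot genes, well-known targets of the pathway, were not among the members and are given below as other genes. The study sequenced RNA from brains of Drosophila melanogaster in 25 libraries: 5 of untreated females, 7 of females after long-term photodynamic exposure (PDE), 7 of untreated males and 6 of males after PDE. A photodynamic treatment combines light with a photosensitising compound, which yields reactive oxygen species, and the series asks how the response to oxidative stress differs after a long treatment. The sources used here name no strain, age, photosensitising compound, light or duration. Titles of treated samples have PDT and their treatment label photodynamic therapy, and both were read as PDE. The labels do not say whether libraries came from separate flies or pools, so p-values measure only how far these samples spread, and part of that may be technical.

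In flies, secreted Unpaired cytokines bind the receptor Domeless, the Janus kinase Hopscotch bound to it phosphorylates Stat92E, and Stat92E enters the nucleus and switches on its targets. Socs36E is one of those targets and damps the receptor complex, which closes a feedback loop, while the phosphatase Ptp61F removes phosphate from the kinase and the STAT. The pathway is known for stress and wound responses in fat body, haemocytes and gut, and in the brain for roles in glia. Thioester proteins are secreted relatives of vertebrate complement factors and alpha-2-macroglobulin that take part in humoral immunity and in the uptake of microbes by haemocytes. The activity of the pathway depends on phosphorylation, which RNA levels do not measure.

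Library totals, recovered from the values, ran from 8.88 M to 58.73 M reads, with medians of 23.42 M in female controls, 26.16 M in female PDE, 31.71 M in male controls and 26.55 M in male PDE. The summed RPKM (reads over gene length in kilobases, scaled to the library total) of 13 retina markers was 5276.7 to 9472.8 in 5 libraries, namely female control 4, male controls 4, 5 and 6 and male PDE 3, and 80.9 to 2111.7 in the other 20. The neuronal markers summed to 540 to 639 RPKM in every library. Among them elav was near 0, at up to 0.0466 RPKM and 0 to 10 reads in a library. The retina marker Arr2 and the glial marker moody were listed at 0 in all 25 libraries. Genes whose annotated span lies inside another gene were listed at 0 in all libraries in 92.4% of 1754 cases, against 6.02% of 14243 other genes, and none of the 10 members lies inside another gene. In bulk tissue, fewer cells of a type and less RNA per cell cannot be told apart.

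The receptor, the kinase, the STAT and both inhibitors each had 484 or more reads in every library. RNA of the cytokines was scarce in all 4 groups, at no more than 26 reads in a library. Stat92E stood highest. Levels between genes are compared as exon-based RPKM, the recovered reads over the summed exon length, because the deposited RPKM of most genes was divided by the genomic span, introns included. Over 25 libraries the median of Stat92E was 72.8 exon-based RPKM (range 64.4 to 91.8). Socs36E followed at 31.2 (28.4 to 35.4) and Ptp61F at 19.7 (17.6 to 22.9). Tep2 stood at 18.7 (11.4 to 37.5), dome at 13.8 (11.2 to 16.1) and hop at 11.9 (10.2 to 14.8) on the same scale. Tep4 had a median of 2.66 (1.01 to 8.40), Tep1 of 0.264 (0.151 to 0.509), upd2 of 0.0875 (0 to 0.406) and upd3 of 0.0298 (0 to 0.307). The ranges of Stat92E, Socs36E and Ptp61F did not overlap in that order, nor did those of hop, Tep4 and Tep1, while Ptp61F, Tep2, dome and hop overlapped in turn, as did Tep1, upd2 and upd3. The exon-based scale counts all reads of a gene as exonic, and reads from introns or from genes inside an intron, which the table does not separate, would raise it. By deposited RPKM the inhibitors stood lower, Socs36E at rank 5 in place of 2 and Ptp61F at rank 7 in place of 3. For Ptp61F the length behind the RPKM was 125628 bases against 6069 bases of exon, so its exon-based level was 20.7 times its RPKM, and 20 annotated genes lie within its span.

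**Figure D1:**
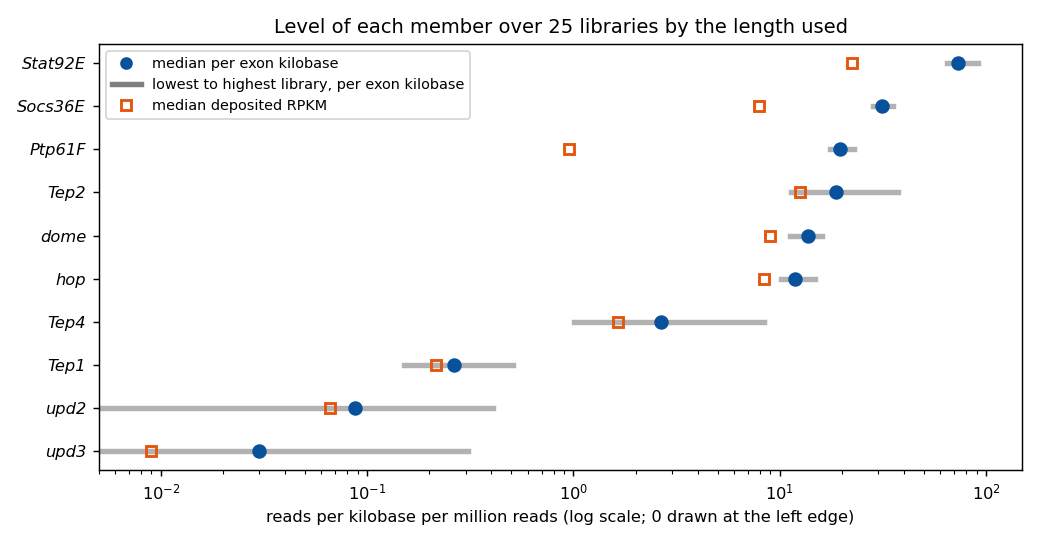
Median level of each of the 10 genes over 25 libraries on a log axis, per kilobase of exon (filled circles, with grey bars from the lowest to the highest library) and as deposited RPKM (open squares). The squares of Ptp61F, Socs36E, upd3 and Stat92E lie far left of their circles, and upd2 and upd3 lie at the low end on either scale.

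The genes of the core pathway differed little between libraries: the highest library exceeded the lowest by a factor of 1.25 for Socs36E, 1.30 for Ptp61F, 1.43 for Stat92E, 1.44 for dome and 1.45 for hop. Among the Tep genes that factor was 3.30 for Tep2, 3.38 for Tep1 and 8.33 for Tep4. PDE was compared with control within each sex and as the mean over the sexes, with limma on log2(RPKM + 1) over the 7985 genes that reached 1 RPKM in 5 or more libraries. A gene counts as called where its Benjamini-Hochberg adjusted p is under 0.05. Of the members 7 passed the minimum, and upd2, upd3 and Tep1 did not. The comparison called 0 of the 7 in females, 0 in males and 0 in the mean of the sexes, where it called 0.0751%, 0.175% and 0.413% of all genes. At an unadjusted p under 0.05 stood 0, 1 and 1 of the 7 in the same order, and the 1 was Tep2 both times. Among all genes 383, 319 and 512 reached that p. The voom method on recovered reads also called 0 members in each. The median log2 change of the 7 in the mean of the sexes was 0.027, against 0.013 over all genes tested.

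**Figure D2:**
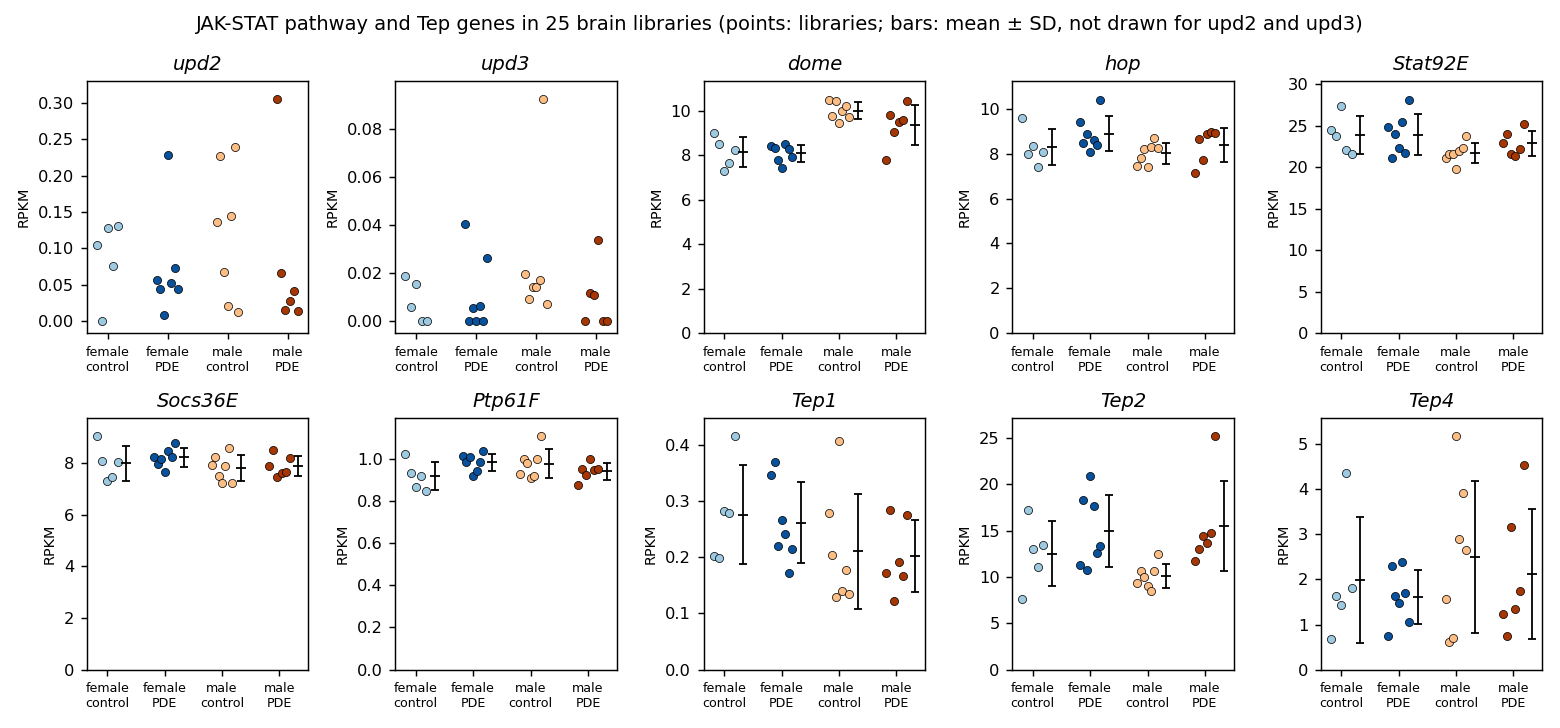
RPKM of the 10 genes in each library (points) by group, with the mean and SD beside the points except for upd2 and upd3, on linear axes that differ between genes. PDE and control points overlap in every panel, and in the panel of dome the 7 male controls all lie above the 5 female controls.

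The ligands come first. The gene upd2 (FBgn0030904, chromosome X, 18240654 to 18243284, minus strand, in Ensembl BDGP6.54 coordinates as for all genes here) encodes a cytokine that the fat body releases in response to feeding. Its RPKM was 0.104, 0, 0.128, 0.0762 and 0.131 in the female controls. It ran from 0.00787 to 0.229 (median 0.0528) in female PDE, from 0.0129 to 0.239 (median 0.137) in male controls and from 0.0135 to 0.306 (median 0.0339) in male PDE. The 4 groups overlapped, and these values rest on 0 to 24 reads in a library. Each PDE group held 1 library far above the others, female PDE 4 with 14 reads and male PDE 1 with 9.

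The gene upd3 (FBgn0053542, chromosome X, 18277233 to 18284596, plus strand) encodes a cytokine known to be induced by injury and infection. It was listed at 0 in 8 libraries, 2 of female controls, 3 of female PDE and 3 of male PDE, and a count of 0 (limit 3 reads) allows up to 0.0129 to 0.0364 RPKM there. Its summed reads, not scaled for the number or depth of libraries, were 5 in female controls, 16 in female PDE, 46 in male controls and 11 in male PDE. Male control 6 alone held 26 of the 46. Its median RPKM was 0.0058 in female controls, 0.00562 in female PDE, 0.0144 in male controls and 0.00539 in male PDE. Without the minimum on RPKM, limma gave upd2 a log2(RPKM + 1) change of −0.04 (SE 0.043) and upd3 one of −0.01 (SE 0.011) in the mean of the sexes, both with an adjusted p of 0.991. At such levels the pseudocount of 1 shrinks any change, so these fits do not settle whether either cytokine differed. How large a difference could be detected at this depth was not tested.

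The receptor gene dome (FBgn0043903, chromosome X, 19676061 to 19683518, minus strand) encodes the signalling receptor of the Unpaired cytokines. Its RPKM in female controls was 8.998, 8.497, 7.306, 7.661 and 8.266. The lowest, median and highest values were 7.44, 8.28 and 8.50 in female PDE, 9.46, 10.02 and 10.5 in male controls, and 7.81, 9.53 and 10.4 in male PDE. Within each sex the PDE libraries overlapped the controls, although 2 of the 6 male PDE libraries lay below every male control. The change of dome was −0.01 in females (SE 0.054, limma adjusted p = 0.999) and −0.09 in males (SE 0.051, adjusted p = 1.0). Averaged over the sexes it was −0.05, with a 95% interval of 0.917 to 1.02 on the fold scale of RPKM + 1.

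The Janus kinase gene hop (FBgn0004864, chromosome X, 11360930 to 11368098, minus strand) was at 9.596, 8.006, 8.354, 7.399 and 8.081 RPKM in female controls. Female PDE libraries ran from 8.10 to 10.4 (median 8.63), and all 7 lay above the female control median, with 1 above every control. Male controls ran from 7.43 to 8.70 (median 8.20) and male PDE from 7.16 to 8.97 (median 8.76). The groups overlapped in both sexes. Averaged over the sexes the change was 0.07 (SE 0.044, limma adjusted p = 0.913), with a 95% interval of 0.989 to 1.12 in fold.

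Stat92E (FBgn0016917, chromosome 3R, 20535323 to 20552311, minus strand), the single STAT gene of the fly, was at 24.5, 23.8, 27.4, 22.1 and 21.6 RPKM in female controls. The range was 21.1 to 28.2 (median 24.03) in female PDE, 19.8 to 23.8 (median 21.6) in male controls and 21.3 to 25.2 (median 22.6) in male PDE. All 4 groups overlapped. The averaged change was 0.04 (SE 0.045, limma adjusted p = 0.999), with an interval of 0.962 to 1.09 in fold.

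Socs36E (FBgn0041184, chromosome 2L, 18138675 to 18152417, minus strand) is the feedback inhibitor whose RNA is often used as a readout of the pathway. It was at 9.031, 8.082, 7.307, 7.457 and 8.052 RPKM in female controls and between 7.65 and 8.78 (median 8.24) in female PDE. Male controls ran from 7.24 to 8.57 (median 7.87) and male PDE from 7.45 to 8.49 (median 7.77). No PDE library of either sex lay above every control of its sex. The averaged change of Socs36E was 0.03 (SE 0.033, limma adjusted p = 0.999), and its 95% interval ran from 0.972 to 1.07 in fold.

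Ptp61F (FBgn0267487, chromosome 3L, 1342493 to 1475257, minus strand), the fly relative of the mammalian phosphatase PTP1B, lies near the minimum of 1 RPKM because of its long introns. Female controls ran from 0.848 to 1.02 RPKM, female PDE from 0.917 to 1.03, male controls from 0.908 to 1.11 and male PDE from 0.877 to 0.999, and all overlapped. The averaged change was 0.01 (SE 0.032, limma adjusted p = 0.999). On recovered reads scaled to the library total (RPM), which hold no length, the change of Ptp61F was 0.10 in females (SE 0.05) and −0.05 in males (SE 0.048). The difference of these changes was −0.15 (SE 0.069), with an unadjusted p of 0.038 in limma and an adjusted p of 1.0.

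**Figure D3:**
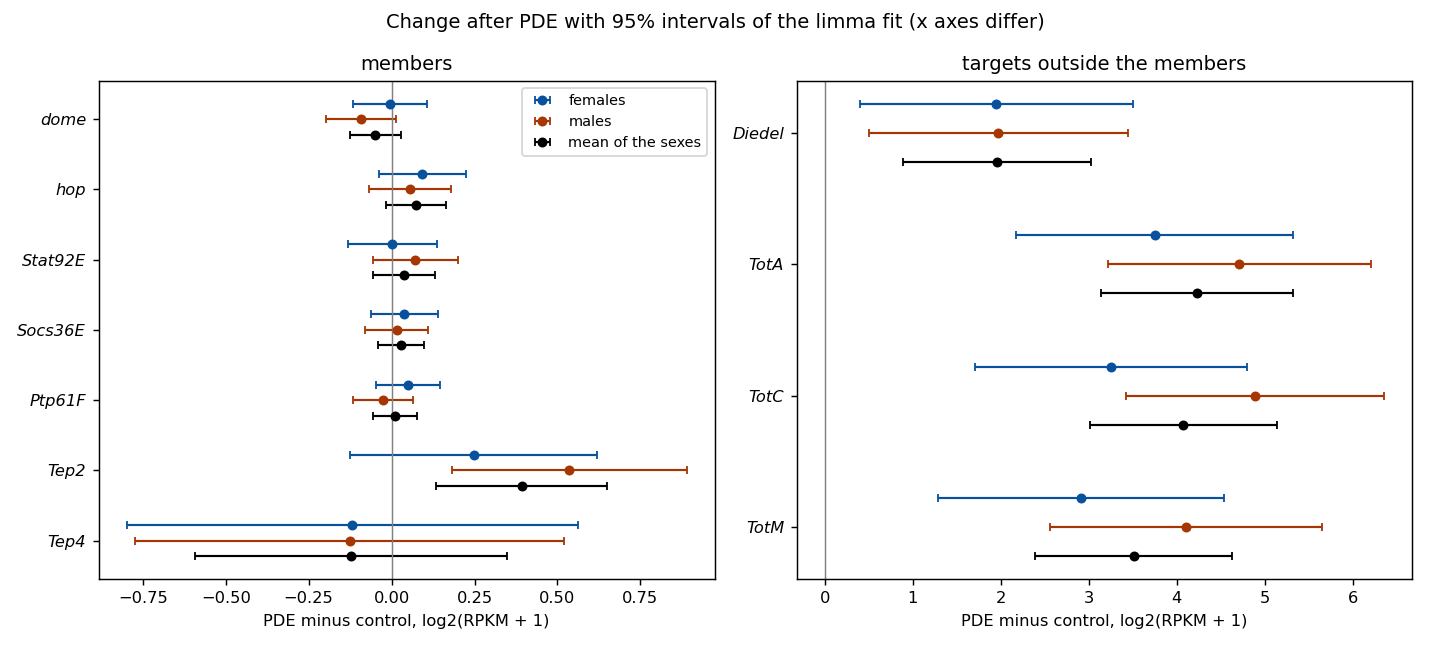
Change after PDE on log2(RPKM + 1) with 95% intervals from limma, in females, males and the mean of the sexes, for the 7 members tested (left) and for 4 target genes outside the members (right), with a wider axis on the right. The intervals of the 5 core pathway genes include 0 and are narrow, that of Tep2 lies above 0 in males and in the mean, and those of the 4 targets lie above 0.

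Among the thioester proteins, Tep2 had the change furthest from 0 of the 7 members tested in males, in females and in the mean of the sexes. Tep2 (FBgn0041182, chromosome 2L, 7693727 to 7701601, minus strand) encodes a secreted protein of humoral immunity. Its RPKM was 7.628, 17.21, 12.99, 11.07 and 13.49 in female controls, and 10.7 to 20.8 (median 13.4) in female PDE. In male controls it ran from 8.49 to 12.5 (median 9.99). The 6 male PDE libraries held 11.76, 13.06, 14.45, 13.68, 14.77 and 25.14. In males 5 of the 6 PDE libraries lay above every control and all 6 above the control median, and in females 3 of 7 and 4 of 7 did so. The change was 0.54 in males (SE 0.171, fold 1.45, 95% interval 1.13 to 1.85), with an unadjusted p of 0.00458 and an adjusted p of 0.652 in limma. In females it was 0.25 (SE 0.18, adjusted p = 0.999), and averaged over the sexes 0.39 (SE 0.124, fold 1.31, interval 1.10 to 1.57, limma adjusted p = 0.343). The male and female changes differed by 0.29 (SE 0.248), with a limma adjusted p of 0.999 in a comparison that called 0.0% of genes. Without male PDE 6 the male change was 0.39 (SE 0.157, unadjusted p = 0.0199, limma adjusted p = 1.0). Tep2 passed in none of the alternatives tried.

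In the mean of the sexes the changes of the haemocyte markers tested were above 0, as was that of Tep2, and none passed. Of 11 such markers measured, 10 were above 0, with PPO1 at 0 throughout, and their summed RPKM was 65.5 to 174.5 in female controls, 81.3 to 200.8 in female PDE, 80.4 to 99.2 in male controls and 87.3 to 137.7 in male PDE. In the mean of the sexes 9 were tested and 0 called, 3 had an unadjusted p under 0.05, all 9 changes were above 0, and their median was 0.286. In females 8 of the 9 and in males all 9 were above 0. The voom fit also called 0. The phagocytic receptor gene NimC1 had a change of 0.74 (SE 0.235, limma adjusted p = 0.343) and the collagen gene Col4a1 one of 0.32 (SE 0.095, adjusted p = 0.256), neither passing. A direction above 0 was not particular to haemocyte markers, although most neuronal markers went the other way. The 4 glial markers tested changed by 0.05 (repo), 0.15 (Eaat1), 0.17 (Gs2) and 0.15 (Gat) in the mean of the sexes. None of these passed (limma adjusted p = 0.999, 0.751, 0.647 and 0.823). Of the neuronal markers tested, nSyb changed by −0.08 (limma adjusted p = 0.222). The others changed by −0.03 (brp), −0.04 (Syt1), −0.03 (Gad1) and 0.03 (VGlut), with a limma adjusted p of 0.999 for each. Male PDE 6, the library highest in Tep2, was also the highest of the male PDE libraries in 4 genes of plasmatocytes, the phagocytic haemocytes. These were NimC1 (8.095 RPKM), eater (2.232 RPKM), Hml (1.558 RPKM) and Sr-CI (10.38 RPKM). Its summed haemocyte markers were the highest of the male PDE libraries as well, at 137.7 RPKM. Female PDE 4, the female PDE library highest in Tep2, was not the highest female PDE library in any of these 4. The other haemocyte markers were not read in single libraries. With values centred on their group means over 25 libraries, Tep2 correlated with the haemocyte markers at Pearson r = 0.577 (permutation p = 0.00273, adjusted p = 0.038 over 28 pairs) and Spearman rho = 0.491 (permutation p = 0.0138, adjusted p = 0.129). Without the 2 libraries farthest from the median r was 0.489. The permutations did not count the group means removed, so the permutation p-values of correlations are somewhat too small. How many other genes correlated as strongly with the marker lists was not computed. Fat body markers, 8 in all, summed to 343.5 to 5998 RPKM in female controls and 622.0 to 2761 in female PDE. In males the sums were 371.6 to 466.9 in controls and 374.1 to 502.9 in PDE. The sums of PDE and control overlapped in both sexes, but single genes went in opposite directions. The female control highest in the fat body sum, number 2, was also the female control highest in Tep2. Tep2 correlated with these markers within groups at r = 0.509 (permutation p = 0.00996, adjusted p = 0.0398) but rho was 0.266 (permutation p = 0.198, adjusted p = 0.37). In the mean of the sexes Yp1, Yp2 and Yp3 changed by −1.16, −1.13 and −1.07 (limma adjusted p = 0.635, 0.726 and 0.726). Lsp2 changed by −0.96 (limma adjusted p = 0.47) and Tsf1 by 0.34 (adjusted p = 0.253). Apoltp changed by −0.01, apolpp by 0.16 and fon by 0.31 (limma adjusted p = 0.999 for each). The part of other cell types in the values of Tep2 was not tested.

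Tep4 (FBgn0041180, chromosome 2L, 19548507 to 19556451, plus strand), a secreted relative of Tep2, was at 0.678, 1.639, 1.445, 4.36 and 1.813 RPKM in female controls and between 0.752 and 2.38 (median 1.63) in female PDE. Male controls ran from 0.621 to 5.17 (median 2.66) and male PDE from 0.742 to 4.55 (median 1.55), so the groups overlapped widely. In the 5 libraries rich in retina markers Tep4 was at 2.897 to 5.171 RPKM, and in the other 20 at 0.621 to 2.66 apart from male PDE 6 at 4.545. Within groups Tep4 correlated with the haemocyte markers at r = 0.509 (permutation p = 0.00882, adjusted p = 0.0398) and rho = 0.412 (permutation p = 0.0411, adjusted p = 0.144). The averaged change was −0.12 (SE 0.227, limma adjusted p = 0.999, interval 0.664 to 1.27 in fold), and it turned to 0.18 (SE 0.203, adjusted p = 1.0) without those 5. The part of retinal tissue in the values of Tep4 was not tested. Tep1 (FBgn0041183, chromosome 2L, 15888640 to 15893811, minus strand), which is known to respond to Hopscotch activity in larvae, was at 0.123 to 0.415 RPKM in all libraries. Its averaged change on the RPM scale was −0.03 (SE 0.14, limma adjusted p = 1.0).

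**Figure D4:**
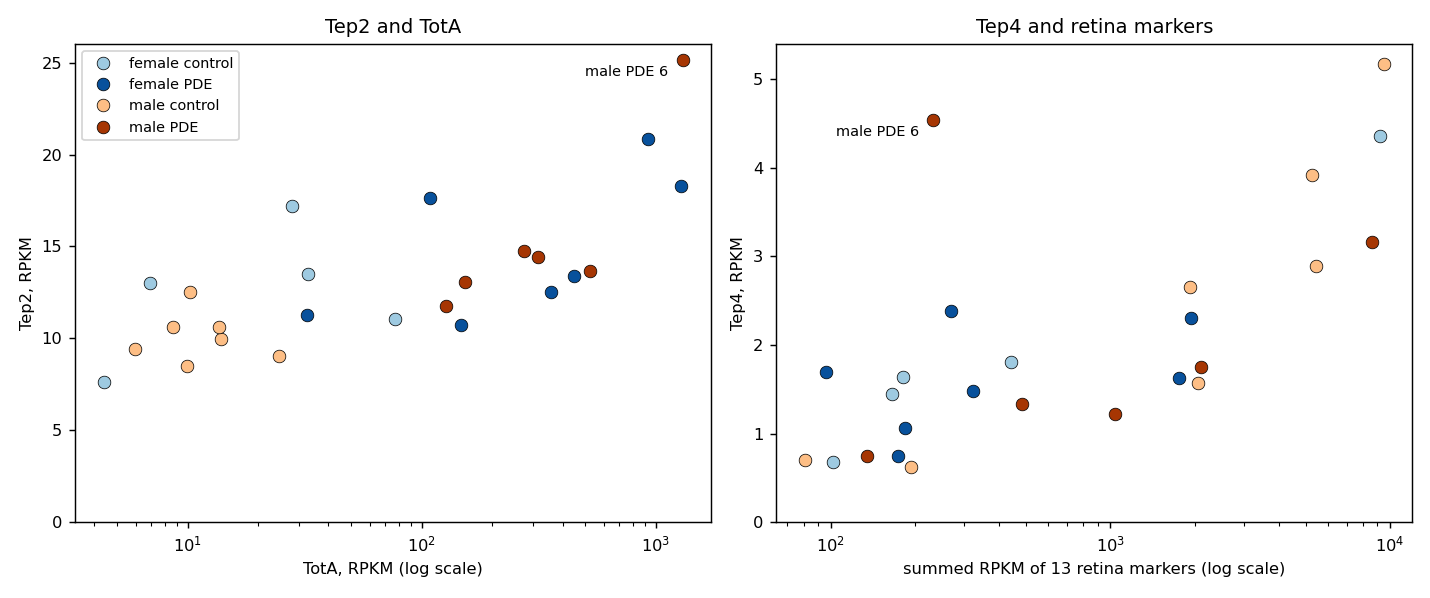
Tep2 against TotA (left) and Tep4 against the summed RPKM of 13 retina markers (right), each point 1 library coloured by group, with RPKM on the vertical axes and log horizontal axes. Male PDE 6 is the highest in Tep2 and TotA, and Tep4 is high in the 5 libraries richest in retina markers and in male PDE 6.

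Other genes of the pathway were read from a list of 13 upstream ligands, receptors and regulators, of which 10 passed the minimum. The ligand gene upd1, the receptor-like inhibitor et and Cdk4 did not. By limma 0 of the 10 were called in females, in males and in the mean of the sexes, and an unadjusted p under 0.05 was found for 0, 0 and 1. The voom fit called 0 of the 12 it tested in each. The median change in the mean of the sexes was −0.002. The cyclin gene CycD had the smallest p, with a change of 0.17 (SE 0.07, unadjusted p = 0.023, limma adjusted p = 0.635). Of 2 other genes of the thioester family, Tep3 had a change of 0.11 (SE 0.107) and the septate junction gene Mcr one of 0.03 (SE 0.033), and neither passed (limma adjusted p = 0.999 for both).

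Among 7 target genes TotA, TotC and TotM encode small secreted stress proteins. These 3 were called as higher after PDE in males and in the mean of the sexes. In females their changes were also above 0 but did not pass, and the other 4 targets did not pass. Averaged over the sexes the changes were 4.23 for TotA (SE 0.526, limma adjusted p = 4.27e-05) and 4.07 for TotC (SE 0.515, adjusted p = 4.94e-05). TotM changed by 3.51 (SE 0.542, limma adjusted p = 0.000929). The voom fit on recovered reads called only TotA of the 3, with changes in the mean of the sexes of 5.48 (SE 1.4, adjusted p = 0.12) for TotC and 4.73 (SE 1.24, adjusted p = 0.15) for TotM. In males the limma changes were 4.89 for TotC (SE 0.71) and 4.11 for TotM (SE 0.747), and those by voom, which missed, 6.65 (SE 1.93) and 6.17 (SE 1.95). In males TotM also missed without the 5 retina-rich libraries (4.04, SE 0.96, limma adjusted p = 0.279) and with a pseudocount of 5 (2.53, SE 0.592, adjusted p = 0.107). In females 0 of the 3 passed, with 3 at an unadjusted p under 0.05, and the difference between the sexes did not pass for any of them (adjusted p = 0.999). Diedel, a secreted protein known to limit immune signalling and named here after its values were seen, was at 0 to 0.771 RPKM in female controls and 0.446 to 22.1 in female PDE. It was at 0 to 0.173 RPKM in male controls and 0.104 to 62.7 in male PDE, the highest being male PDE 6. Its averaged change was 1.96 (SE 0.518, limma adjusted p = 0.135), and it passed at 3.88 (SE 0.716, adjusted p = 0.00546) with a pseudocount of 0.1 in place of 1. The remaining targets, the transcription factor genes zfh1 and chinmo and the antiviral gene vir-1, had changes of 0.09 (SE 0.037), −0.02 (SE 0.047) and 0.20 (SE 0.104), with limma adjusted p of 0.639, 0.999 and 0.833. Within groups Tep2 correlated with the Turandot genes at Pearson r = 0.586 (permutation p = 0.00222, adjusted p = 0.038 over 28 pairs) and Spearman rho = 0.545 (permutation p = 0.0054, adjusted p = 0.129). Without the 2 libraries farthest from the median r was 0.447. For Tep4 and the Turandot genes r was 0.512 (permutation p = 0.00846, adjusted p = 0.0398) and rho 0.38 (permutation p = 0.063, adjusted p = 0.196). Of the 28 pairs of a member with the Turandot genes or a marker list 7 had an adjusted p of r under 0.05, and none of the 7 had one of rho. The share of all genes that correlated as strongly with these lists was not computed, so the 7 are not shown to be particular to the members. Since the permutations did not count the group means removed, these p-values are somewhat too small, and the 7 are not taken as passing.

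The sexes were compared in controls and after PDE. In controls dome was higher in males, by 0.27 (SE 0.054, fold 1.21, 95% interval 1.12 to 1.30, limma adjusted p = 0.00262), and it was the 1 of the 7 members called, against 4.75% of all genes. All 7 male controls, from 9.46 RPKM, lay above all 5 female controls, up to 8.998 RPKM, a separation that 2.97% of genes showed. Library totals separated these groups too, at 8.88 M to 26.1 M reads in female controls and 27.83 M to 58.73 M in male controls. Sex and depth therefore cannot be told apart in controls, and the part of depth in this difference was not tested. After PDE dome was again the 1 member called, against 4.92% of all genes, at 0.18 (SE 0.051, fold 1.14, interval 1.06 to 1.22, adjusted p = 0.0355), and the male and female PDE libraries overlapped through male PDE 1 at 7.807 RPKM. The sex difference in controls and that after PDE differed by −0.09 (SE 0.074, limma adjusted p = 0.999). Among X-linked genes 94 of 1315 were higher in male controls (7.15%) and 165 lower (12.5%), against 32 (0.482%) and 88 (1.33%) of 6633 autosomal genes. By size dome was number 96 of the 126 genes higher in male controls and number 124 of 132 after PDE. Its X-linked kinase partner hop differed by −0.04 in controls (SE 0.063, limma adjusted p = 0.838) and by −0.08 after PDE (SE 0.06, adjusted p = 0.605). The autosomal Stat92E differed by −0.13 in controls (SE 0.065, adjusted p = 0.351) without passing. Among the other pathway genes Socs16D, a further SOCS gene, was lower in male than in female controls by −0.22 (SE 0.055, limma adjusted p = 0.0202), and after PDE the difference was −0.14 (adjusted p = 0.145). The control difference of Socs16D missed without female control 1 (−0.18, SE 0.055, limma adjusted p = 0.0897), without the 5 retina-rich libraries (−0.23, SE 0.069, adjusted p = 0.11) and with the compared groups alone (−0.22, SE 0.054, adjusted p = 0.0575), and that after PDE passed without female PDE 3 (−0.18, SE 0.047, adjusted p = 0.0308).

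The call of dome in controls was lost without the 5 retina-rich libraries, at nearly the same size (0.27, SE 0.07, limma adjusted p = 0.0563). The call after PDE held in 24 of 35 alternatives. It was lost without female PDE 3, 4 or 7 and without male PDE 2, 4, 5 or 6, where the adjusted p lay between 0.0638 and 0.103. It was also lost under the replicate block (0.18, SE 0.052, limma adjusted p = 0.0579), with the compared groups alone (0.18, adjusted p = 0.0838), without the 5 retina-rich libraries (0.19, adjusted p = 0.0807) and, at the threshold, with no minimum on RPKM (adjusted p = 0.05).

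**Figure D5:**
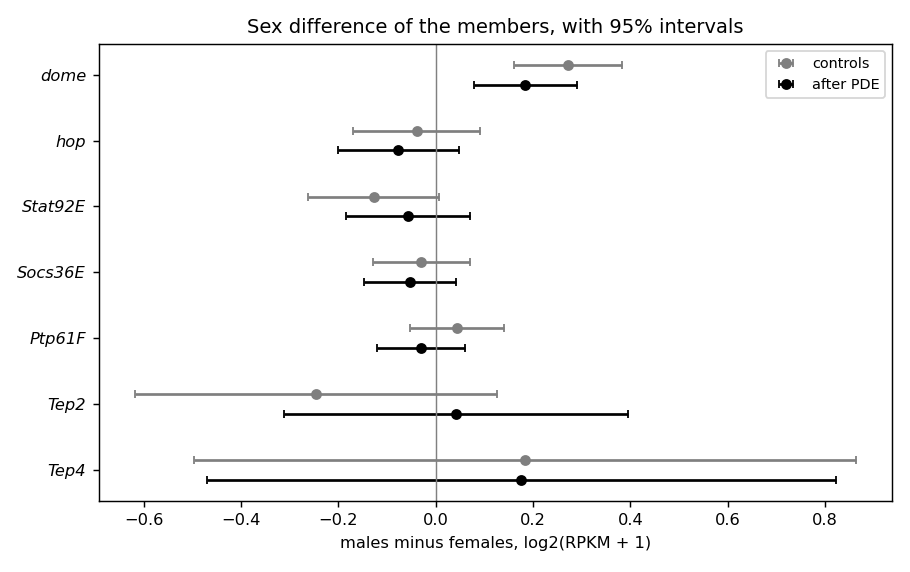
Males minus females on log2(RPKM + 1) with 95% intervals from limma for the 7 members tested, in controls and after PDE. The intervals of dome lie above 0 in both, and those of the other 6 genes include 0.

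Correlations between members within groups were of a size that many gene pairs reached. With values centred on their group means over 25 libraries, which share depth and tissue makeup, 5 of 21 pairs of members had a permutation p of Pearson's r that stayed under 0.05 after adjustment. These 5, or 23.8% of the member pairs, had an r of at least 0.531, as did 10.5% of all pairs of genes tested. The pair hop and Ptp61F came first, at r = 0.631 (permutation p = 0.0007, adjusted p = 0.0147) and rho = 0.634 (permutation p = 0.00097, adjusted p = 0.0102), with r = 0.578 without the 2 libraries farthest from the median. The pairs hop and Stat92E (r = 0.577), dome and hop (r = 0.552), dome and Socs36E (r = 0.542) and hop and Socs36E (r = 0.531) followed, of which dome and hop and hop and Socs36E missed by rho (adjusted permutation p = 0.0991 and 0.0961). No pair with Tep2 or Tep4 was among the 5. All permutation p-values here are somewhat too small, since the group means removed were not counted. With the glial markers hop correlated at r = −0.542 (permutation p = 0.00515, adjusted p = 0.038) and Socs36E at r = −0.537 (permutation p = 0.00543, adjusted p = 0.038), with rho of −0.488 and −0.462 (adjusted permutation p = 0.129 and 0.136). By the same centred values, the genes most like dome were Golgin245 (r = 0.811), asRNA:CR44030 (r = 0.786) and Tmf (r = 0.755), and those most like Stat92E were bon (r = 0.885), Trpm (r = 0.867) and Patronin (r = 0.852). Those most like Tep2 were CG3829 (r = 0.849), Spn42Dd (r = 0.843) and CG4306 (r = 0.838), and those most like Tep4 were Cftr (r = 0.859), Exn (r = 0.857) and CG15211 (r = 0.855). These likenesses are descriptions and carry no test.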

How the data were processed

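The authors deposited 1 table of RPKM values for 16060 genes in 25 libraries. Per the labels' protocols, a Maxwell RSC kit served for extraction and Takara's SMART-Seq mRNA LP kit for the libraries. Per the submitters' processing notes, reads were aligned with STAR to dm6. The counter, its strand setting, its annotation and its treatment of shared reads are not stated in the labels or headers (not given in the sources used), so sense and antisense reads cannot be told apart. Tep2 shares exon bases with CG43235 on the other strand, which was listed at 0.

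Groups and replicate numbers came from the labels, and 0 columns were left unassigned. The members, the gene lists and the tests were chosen with earlier results of these data known. Symbols and positions came from Ensembl BDGP6.54 (release 115), which named 15997 genes. The steps between RPKM values gave library totals and whole reads (tolerance 0.001) for 13578 of 13581 genes above 0. The length behind RPKM was the genomic span in 85.7% of genes with introns, and exon-based levels were computed from the recovered reads.

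Values were fitted as log2(RPKM + 1) with limma 3.58.1 (R 4.3.3, 1 coefficient per group, all 25 libraries, intensity trend, Benjamini-Hochberg over 7985 genes). The fit was tested on simulated data. Fold changes are on the RPKM + 1 scale, which understates changes of low genes. Intervals cover 95%. Intervals and limits for 0 counts cover counting or library spread only, since no molecular identifiers are recorded. Correlations used 100000 permutations. These moved the centred values freely over the 25 libraries and did not count the 4 group means removed, so their p-values are somewhat too small. All 10 members are named, from the lists of other pathway genes, of targets and of other thioester proteins the genes called or else the 2 with the smallest p, and for some members the 3 genes most like them. Further genes of these lists and single marker genes were named after their values were seen. Other steps used matplotlib 3.10.9, scipy 1.17.1, pandas 2.3.3, numpy 2.4.6 and Python 3.11.15. Alternatives were pseudocounts of 0.1 and 5, no minimum, quantile normalization, recovered reads scaled to the library total (RPM, 8595 genes), voom on those reads, array weights, the compared groups alone, a replicate block, and leaving out the 5 retina-rich libraries or each library. No 2 libraries of a group agreed within sampling noise (lowest chi-square per degree of freedom 12.45 over 67 pairs).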

Additional observations from a re-analysis of the deposited data

Results flagged for a closer look

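In each of the 4 groups the highest or lowest library of each of the 10 genes was compared with its neighbour by Dixon's gap. Of 40 such comparisons 5 stood apart. Chance flags about 1 in 20 where values are normally spread. That rate cannot be applied to upd2 and upd3, which rest on few reads, so the 5 are not read as an excess. Tep2 was at 25.14 RPKM in male PDE 6, against 11.76 to 14.77 in the other male PDE libraries, and without that library the male change of Tep2 was 0.39 (SE 0.157, limma adjusted p = 1.0) in place of 0.54. The ligand gene upd2 was at 0.2288 RPKM in female PDE 4 (14 reads) and at 0.3055 RPKM in male PDE 1 (9 reads). The ligand gene upd3 was at 0.09254 RPKM in male control 6 (26 reads) and at 0.03364 RPKM in male PDE 4 (7 reads). The cytokine values rest on few reads, and whether they reflect the flies or the libraries was not tested.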

How the results depend on the processing

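In the comparisons of PDE with control, and of the changes between the sexes, 0 members were called under every alternative run. The 1 member called between the sexes in controls, dome, became 0 without the 5 retina-rich libraries. After PDE it became 0 with no minimum, with the compared groups alone, under the replicate block and without the 5 retina-rich libraries, and ranged from 0 to 1 when each library was left out. The replicate block gave dome 0.18 after PDE (SE 0.052, limma adjusted p = 0.0579). Same-numbered libraries correlated at −0.688 to 0.75 (median 0.081, 34 pairs; other numbers, median −0.026), so the numbers were not taken as pairs. Some changes that were not called turned in sign: Ptp61F averaged over the sexes (−0.005) and Socs36E in males (−0.007) under quantile normalization, and Tep4 averaged over the sexes without the 5 retina-rich libraries (0.184). In females Stat92E turned in 9, dome in 5 and Tep4 in 2 of 35 alternatives, and in males Tep4 turned in 4 (−0.315 to 0.249). Between the changes of the sexes Tep4 turned in 18, hop in 3 and Socs36E in 2 of 34, and between the sexes Tep2 turned in 3 and Tep4 in 1 after PDE and Tep4 in 2 and Socs36E in 1 in controls, of 35. Leaving out each library moved Socs36E in males from −0.003 to 0.037, hop between control sexes from −0.075 to 0.009 and chinmo averaged over the sexes from −0.039 to 0.01. The cause was not tested. Over all genes, the number called in males was 14 and ran from 6 to 25, in females from 3 to 9, in the mean of the sexes from 22 to 41, between control sexes from 176 to 449 and between PDE sexes from 274 to 664. Depth limits upd2, upd3 and Tep1, which rest on 0 to 80 reads in a library.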
